A study of Homo sapiens with 4 samples.

Results

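The genes encoded by mitochondrial DNA are the 37 genes of the human mitochondrial chromosome: 13 that encode proteins (mRNA), 2 that encode ribosomal RNA (rRNA) and 22 that encode transfer RNA (tRNA). They were taken as all rows of the deposited gene table whose name starts with MT- and whose chromosome is MT, 37 of 58735 genes. The study measured RNA of SUP-M2, a human cell line from an ALK-positive anaplastic large cell lymphoma (a T-lineage lymphoma driven by a fusion of the ALK kinase), to ask what changes in gene expression when GOLM1, a Golgi membrane protein, is reduced. There were 4 libraries, all of unsorted SUP-M2 cells with no further agent or time named: 2 titled shscramble (a scrambled short hairpin RNA, genotype labelled control) and 2 titled shGOLM1 (a hairpin against GOLM1). The genotype label of the shGOLM1 libraries reads knockout although their titles name a hairpin, so they are called by their titles here. The labels do not say whether the replicates were separate cultures or how many hairpins were used, so a p-value reflects how these libraries vary, and that variation may be technical. Values in all 4 libraries are given in the order shscramble replicate 1, shscramble replicate 2, shGOLM1 replicate 1 and shGOLM1 replicate 2.

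Mitochondrial DNA is a small circle that is transcribed from both strands into long RNAs spanning many genes. Most of its mRNAs and rRNAs are flanked by tRNAs, and cutting the tRNAs out releases them. Most of the mRNAs then receive poly(A) tails. The proteins are core subunits of complexes I, III, IV and V of oxidative phosphorylation, and the rRNAs build the mitochondrial ribosome. Every polymerase, processing enzyme and RNA-binding protein that the system needs is encoded by nuclear genes.

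The libraries held 27544171 to 31972153 counts, and 14166 genes passed the filter on low counts. Levels are CPM, counts scaled to a common library size with edgeR's TMM factors. GOLM1 itself was at 212, 213, 69.6 and 69.5 CPM, about equally low in both shGOLM1 libraries (log2 fold change -1.61, SE 0.27, edgeR adjusted p = 0.42 and DESeq2 adjusted p = 0.0204). Those libraries were nevertheless unlike: across genes, log2 CPM correlated at r = 0.873 between them and at r = 0.989 between the shscramble libraries, and genes are not independent replicates. Ribosomal protein genes took 8.77%, 7.44%, 6.57% and 14.7% of counts, so shGOLM1 replicate 2 stood apart. The 6 markers of anaplastic large cell lymphoma were all detected, but not alike across libraries. TNFRSF8 (CD30) was at 634, 614, 539 and 88.4 CPM and ALK at 340, 316, 327 and 170 CPM. IRF4 was at 1138, 1208, 2239 and 743 CPM, BATF3 at 210, 179, 108 and 87.9 CPM and GZMB at 118, 86.3, 149 and 20.4 CPM. PRF1 went the other way, at 2.91, 2.71, 621 and 145 CPM, so it was low in the shscramble libraries. The defining erythroid markers were at 0 (3 of 3), the myeloid list was high only through CSF1R, and summed B cell, epithelial and fibroblast markers stayed at or below 3.16 CPM in every library. Because of that gap each shGOLM1 library was compared separately with the shscramble pair, in an edgeR quasi-likelihood fit with 3 levels. Its p-values compare those libraries, not the conditions, and its spread comes from the shscramble pair alone.

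The first sequences shown are 4 tRNAs, because they carried nearly all tRNA counts and 3 of them were nearly undetected in shGOLM1 replicate 2. They are read 5′ to 3′ on the minus strand from GENCODE 29 (GRCh38, mitochondrial chromosome) with the anticodon in capitals. MT-TN (tRNA for asparagine) lies at 5657 to 5729, MT-TC (cysteine) at 5761 to 5826, MT-TY (tyrosine) at 5826 to 5891 and MT-TP (proline) at 15956 to 16023.
MT-TN: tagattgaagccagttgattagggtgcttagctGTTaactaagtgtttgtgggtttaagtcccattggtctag
MT-TC: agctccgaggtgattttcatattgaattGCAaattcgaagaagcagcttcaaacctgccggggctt
MT-TY: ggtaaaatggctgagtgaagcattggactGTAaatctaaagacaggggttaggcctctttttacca
MT-TP: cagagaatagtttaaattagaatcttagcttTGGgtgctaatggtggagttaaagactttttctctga
The first 3 sit side by side between MT-ND2 and MT-CO1, and MT-TC and MT-TY share 1 base. MT-TP lies far from them, after MT-CYB and MT-TT.

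The ends of mRNA genes are shown next, because the annotated gene often stops inside its own stop codon. The capitals mark the stop codon or the part of it that the DNA encodes, the rest being supplied by the poly(A) tail. MT-ND3 (10059 to 10404), MT-ND1 (3307 to 4262) and MT-ATP6 (8527 to 9207) were among the mRNAs furthest below the shscramble pair in shGOLM1 replicate 2, and MT-ND4 (10760 to 12137) and MT-ND6 (14149 to 14673, minus strand) were the least reduced there.
MT-ND3: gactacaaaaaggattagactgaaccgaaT
MT-ND1: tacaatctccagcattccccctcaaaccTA
MT-ATP6: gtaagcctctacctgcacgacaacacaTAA
MT-ND4: accccgacatcattaccgggttttcctctT
MT-ND6: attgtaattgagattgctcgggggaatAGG
Of the 13 mRNA genes, 7 encode a whole stop codon and 6 a partial one. Steep and mild members fell in both kinds: the log2 difference of shGOLM1 replicate 2 from the shscramble pair ran from -4.85 to -1.74 in the first and from -4.32 to -1.48 in the second.

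MT-ATP8 is shown whole (8366 to 8572, plus strand), because it shares its last 46 bases, in capitals, with the start of MT-ATP6, on one bicistronic mRNA. A read inside the capitals belongs to both genes, and no source used here says how the authors' counting assigned it.
MT-ATP8: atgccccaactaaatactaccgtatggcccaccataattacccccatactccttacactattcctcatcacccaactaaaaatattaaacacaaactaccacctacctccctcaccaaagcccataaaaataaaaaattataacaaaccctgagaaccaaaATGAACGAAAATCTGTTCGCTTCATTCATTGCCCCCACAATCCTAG
Per unit of length, the ratio of MT-ATP8 to MT-ATP6 was 0.0129, 0.00985, 0.0129 and 0.00598. MT-ATP8 was thus listed far below its partner in every library.

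In the shscramble libraries most mRNAs stood above both rRNAs per kilobase of gene, the exceptions being MT-ND5, MT-ND6 and MT-ATP8. MT-ATP6, a subunit of the ATP synthase, was highest at 3808 ± 66.4 CPM per kilobase (SD, n = 2). The catalytic core of cytochrome c oxidase followed, with MT-CO1 at 3262 ± 82.3, MT-CO2 at 2647 ± 281 and MT-CO3 at 2638 ± 522 CPM per kilobase, and the last 2 did not differ beyond their spread. Among complex I subunits MT-ND4 (2153 ± 52.3 CPM per kilobase), MT-ND2 (2022 ± 111), MT-ND3 (1695 ± 573) and MT-ND4L (1514 ± 160) came next, where MT-ND3 overlapped both of its neighbours MT-ND2 and MT-ND4L. MT-CYB, the only mitochondrially encoded subunit of complex III, was at 1085 ± 41.6 CPM per kilobase and MT-ND1 at 902 ± 87.9. The low end held MT-RNR2, the large-subunit rRNA (586 ± 52.4 CPM per kilobase), MT-ND5 (516 ± 7.23), MT-ND6 (490 ± 15.2), MT-RNR1, the small-subunit rRNA (436 ± 46.7), and MT-ATP8 (43.4 ± 8.99). In shGOLM1 replicate 1 the top was MT-CO1 at 3557 CPM per kilobase. The order was another in shGOLM1 replicate 2, where MT-RNR2 led at 942 CPM per kilobase, before MT-ND4 at 770, MT-CO1 at 576, MT-CO2 at 470 and MT-ND2 at 390. Libraries were made with a kit for mRNA, so an rRNA or tRNA level is its level in this preparation, not in the cell.

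Summed over all 37 genes, mitochondrial transcripts took 2.38%, 2.24%, 1.95% and 0.455% of counts. These shares rest on 762271, 707696, 603095 and 125463 counts, and their 95% Wilson intervals, which cover counting error only, are 2.379% to 2.389%, 2.234% to 2.244%, 1.948% to 1.957% and 0.453% to 0.458%. Both shGOLM1 libraries were below both shscramble libraries, but one only slightly and the other strongly. On the CPM scale the sum was 1.28-fold lower in shGOLM1 replicate 1 and 4.05-fold lower in shGOLM1 replicate 2 than the shscramble mean. Between the group means the log2 ratio of the shares was -0.94, and a two-sided exact permutation test over the 4 libraries gave p = 0.333, the smallest it can give with 2 against 2. Leaving out shGOLM1 replicate 2 brought the ratio to -0.24, and leaving out shGOLM1 replicate 1 brought it to -2.34. In bulk RNA, fewer mitochondrial transcripts per cell and fewer cells that carry them cannot be told apart. In shGOLM1 replicate 2 the ribosomal protein share was high where the mitochondrial share was low. With ribosomal protein genes left out of the total the shares were 2.61%, 2.42%, 2.09% and 0.534%, and the log2 ratio of the group means was again -0.94. That ratio averages 2 unlike shGOLM1 libraries, and the part of the ribosomal protein share in the low mitochondrial share was not tested.

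**Figure D1:**
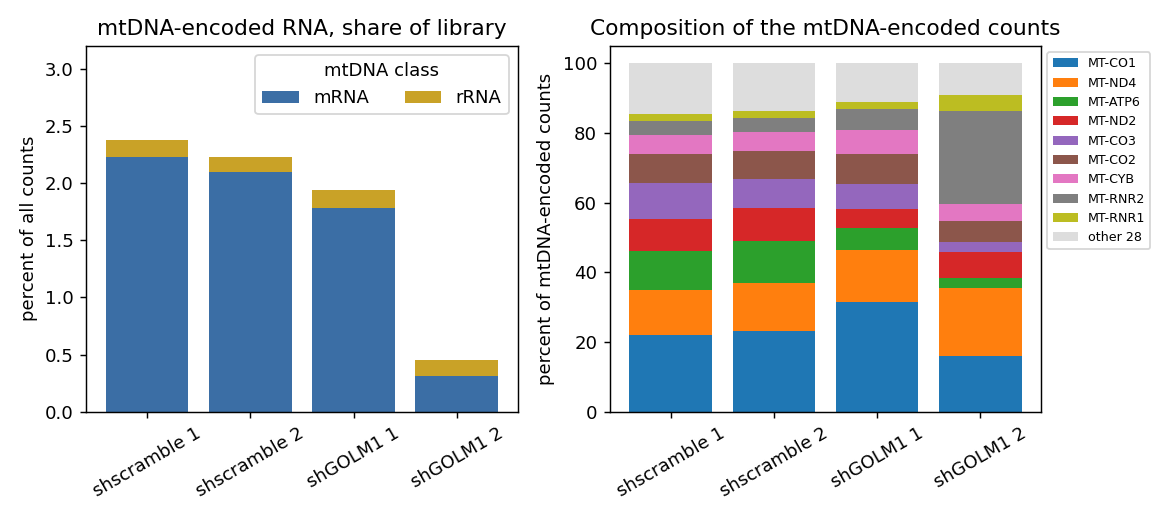
Left, percent of all counts taken by mitochondrial mRNA and rRNA genes in each library (tRNAs are too few to draw). Right, percent of the mitochondrial counts taken by 9 genes and by the other 28 together. The mRNA bar is 2.23% in shscramble replicate 1 and 0.312% in shGOLM1 replicate 2, where MT-RNR2 takes 26.6% of the mitochondrial counts.

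The lower sums lay mainly in the mRNAs, while the rRNA sum took about the same share of all counts in every library. The 13 mRNAs summed to 21858, 19969, 15885 and 3777 CPM. The 2 rRNAs summed to 1419, 1240, 1398 and 1725 CPM, which was 0.145%, 0.130%, 0.157% and 0.143% of all counts. The 22 tRNAs summed to 86.6, 70.4, 109 and 9.75 CPM, above both shscramble libraries in shGOLM1 replicate 1 and below both in replicate 2. Within the mitochondrial counts the mRNA part was 93.6%, 93.8%, 91.3% and 68.5%, and the rRNA part 6.07%, 5.83%, 8.04% and 31.3%. The low sum of shGOLM1 replicate 2 was therefore not one common factor over all 37 genes.

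In the test of 4 libraries with both replicates in their groups, edgeR called 0 of the 25 members that passed the filter on low counts, at an adjusted p under 0.05 (Benjamini-Hochberg over 14166 genes). It called 0% of all genes tested, and the smallest adjusted p of a member was 0.42. At an unadjusted p under 0.05, 3 members were lower, which are MT-ND3, MT-TE and MT-ND2, beside 3.58% of all genes that were lower by that measure and 11.8% in either direction. MT-TE, like MT-TI, passed the filter only through the shscramble libraries, which fixed its direction. DESeq2 called 1 member lower, MT-ND3, beside 0.353% of all genes called lower, 3.53% called higher and 3.88% in either direction, and limma-voom called 0. MT-ND3 had a log2 fold change of -2.94 with an SE of 0.82, an edgeR adjusted p of 0.42 and a DESeq2 adjusted p of 0.00454. The authors' deposited table also gave MT-ND3 alone among the members an adjusted p under 0.05, with a log2 fold change of -2.97 and an adjusted p of 0.00212, beside 0.165% of the genes called lower in it. By order alone, 18 of the 25 tested members had both shGOLM1 values under both shscramble values and 1, MT-RNR2, had them above, where 26.5% of all genes tested lay below and 25.2% above. Without shGOLM1 replicate 1, 26 of 27 tested members were called beside 67.4% of all genes, and without shGOLM1 replicate 2, 12 of 28 beside 44.5% of all genes, a share near that of the members. With either shscramble library left out almost no gene was called, and no member was. All 12 members that did not pass the filter were tRNAs, with at most 16 counts in any library.

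Taken one library at a time, 10 of the 25 members fell in shGOLM1 replicate 1 and 1 rose, beside 24.3% of all genes that fell and 20.8% that rose (45.1% in all). The median log2 difference was -0.53 over the members and -0.0075 over all genes tested. In the other shGOLM1 library, replicate 2, 24 of the 25 fell and 1 rose, beside 35.5% and 33.1% of all genes (68.6% in all). The medians were -3.93 over the members, -2.49 over the 13 mRNAs alone and -0.049 over all genes. The median of the members includes tRNAs with 0 counts in replicate 2, whose log2 values are set by the fit rather than by counts. Against shGOLM1 replicate 1 itself, shGOLM1 replicate 2 was lower at 22 members and higher at 1, beside 33.1% and 30% of all genes (63.1% in all). Both comparisons use the same shscramble libraries. MT-TE and MT-TI passed the filter on low counts only through these libraries, so the filter fixed the direction of their falls. Scaling by library totals alone took the median of all genes to 0.11 in shGOLM1 replicate 1 and to -0.37 in replicate 2. The split of all genes called went from 2942 higher and 3441 lower to 3616 and 2668 in the first, and from 4689 and 5022 to 3577 and 6306 in the second. In shGOLM1 replicate 2 the 24 lower and 1 higher members were counted in each of the 5 alternatives run. In shGOLM1 replicate 1, library totals alone gave 8 lower and 5 higher, and DESeq2 gave 7 lower and 1 higher.

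**Figure D2:**
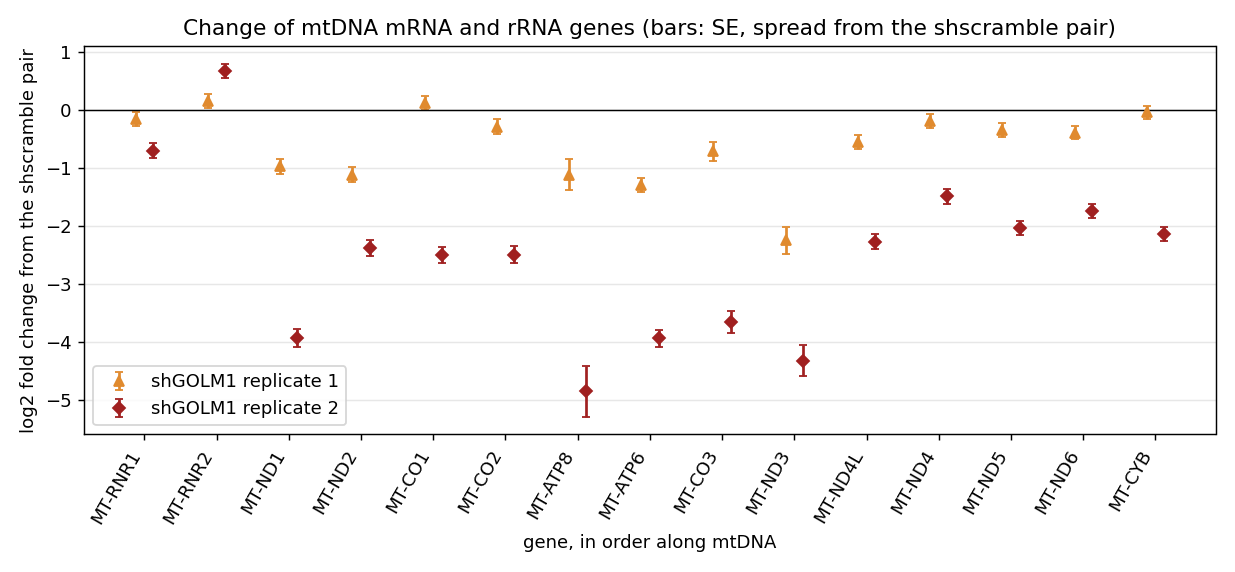
Log2 difference from the shscramble pair for the mRNA and rRNA genes in their order along mitochondrial DNA, in shGOLM1 replicate 1 and in shGOLM1 replicate 2, with bars of 1 SE of the edgeR fit. Replicate 1 lies between -2.25 and 0.12 for the mRNAs, replicate 2 between -4.85 and -1.48.

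Complex I, the NADH dehydrogenase, has 7 mitochondrially encoded subunits, and their mRNAs summed to 8527, 7803, 5383 and 1953 CPM. Those libraries were 1.52-fold and 4.18-fold below the shscramble mean. All 7 fell in shGOLM1 replicate 2 and 6 of the 7 in shGOLM1 replicate 1, the exception being MT-ND4. MT-ND3 was at 727, 446, 124 and 29.3 CPM. It differed between the shscramble libraries themselves, yet both shGOLM1 libraries were below both, with a log2 difference of -2.25 in replicate 1 (SE 0.23, edgeR adjusted p = 1.63e-05) and -4.32 in replicate 2 (SE 0.27, edgeR adjusted p = 2.39e-08). MT-ND2 was at 2188, 2025, 976 and 406 CPM and MT-ND1 at 922, 803, 441 and 56.6 CPM. MT-ND1 fell in both, by log2 values of -0.97 (SE 0.13, edgeR adjusted p = 8.10e-05) and -3.93 (SE 0.15, edgeR adjusted p = 5.57e-10). Its neighbour MT-ND2 had values of -1.11 and -2.37. The other members of the complex were closer to the shscramble pair. MT-ND4, the most abundant of them, was at 3018, 2916, 2601 and 1061 CPM, with no call in replicate 1 (log2 -0.19, edgeR adjusted p = 0.22) and a fall in replicate 2 (-1.48). MT-ND5 (926, 945, 738 and 228 CPM) and MT-ND6 (263, 252, 197 and 77.2 CPM) fell in replicate 1 (log2 -0.34 and -0.39), and with library totals alone those calls were lost (edgeR adjusted p = 0.0977 and 0.0574). MT-ND6 is the only mRNA of the minus strand.

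MT-ND4L and MT-ND4 also lie on one bicistronic mRNA and share 7 bases. MT-ND4L was at 483, 416, 306 and 93.5 CPM. It fell in replicate 1 (log2 -0.55, edgeR adjusted p = 0.0028) and in replicate 2 (-2.27), where its partner had -0.19 and -1.48. The ratio of MT-ND4L to MT-ND4 per unit of length was 0.743, 0.662, 0.547 and 0.409. The 2 genes of one molecule were thus not listed in one fixed ratio across libraries.

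MT-CYB, the cytochrome b of complex III, was near the shscramble level in one shGOLM1 library and far below it in the other. It was at 1271, 1204, 1206 and 282 CPM. Replicate 1 differed from the shscramble pair by -0.038 (SE 0.12, edgeR adjusted p = 0.815), and by 0.079 with library totals alone. In replicate 2 the fall was -2.14 on the log2 scale (SE 0.13, edgeR adjusted p = 2.07e-08).

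Complex IV is cytochrome c oxidase, and its 3 mRNAs summed to 9424, 8393, 8231 and 1374 CPM, 1.08-fold and 6.49-fold below the shscramble mean. MT-CO1, the catalytic subunit, was at 5120, 4940, 5485 and 889 CPM. In replicate 1 it was not called (log2 0.12, edgeR adjusted p = 0.429), although it passed as higher with library totals alone (0.24, edgeR adjusted p = 0.0469), and in replicate 2 it fell (-2.50, SE 0.14, edgeR adjusted p = 1.05e-08). MT-CO2 was at 1947, 1674, 1484 and 321 CPM, with no call in replicate 1 (log2 -0.29, edgeR adjusted p = 0.09) and a fall in replicate 2 (-2.49). MT-CO3 was at 2358, 1779, 1263 and 164 CPM. It was the one member of this complex that fell in replicate 1 (log2 -0.71, edgeR adjusted p = 0.00307, and 0.101 with DESeq2), and its value in replicate 2, -3.66, was the lowest of the 3. Each of the 3 was lower in shGOLM1 replicate 2 than in replicate 1.

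Complex V, the ATP synthase, was the complex with the lowest mitochondrial mRNA sum relative to the shscramble pair in both shGOLM1 libraries. Its 2 mRNAs summed to 2636, 2569, 1065 and 170 CPM, 2.44-fold and 15.4-fold below the mean of the pair. MT-ATP6 was at 2626, 2562, 1061 and 169 CPM. The shscramble libraries were within a few percent of each other, and MT-ATP6 fell in replicate 1 (log2 -1.29, SE 0.12, edgeR adjusted p = 1.07e-05) and in replicate 2 (-3.94, SE 0.15, edgeR adjusted p = 4.30e-10). MT-ATP8 was thinly counted, with 336, 255, 144 and 7 counts. It fell in both, and from its counts the ratio of the shscramble pair to shGOLM1 replicate 2 was 29.2 (95% counting interval 14.1 to 72.9), while in replicate 1 DESeq2 did not call it (adjusted p = 0.0631).

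**Figure D3:**
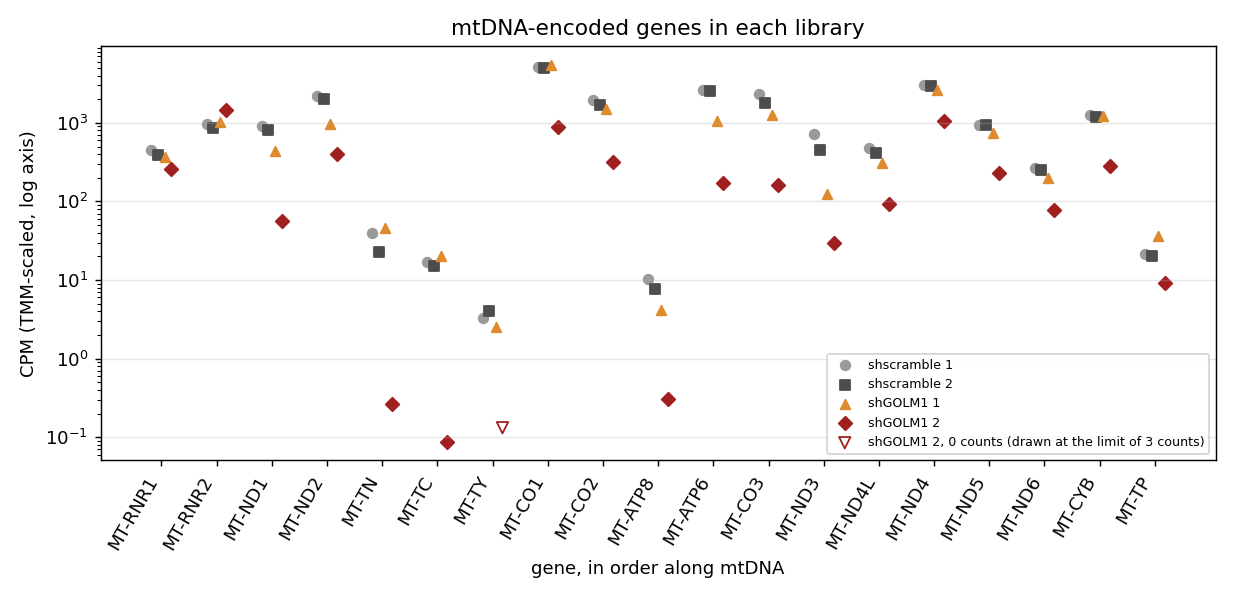
CPM on a log axis of the 13 mRNA genes, the 2 rRNA genes and 4 tRNA genes in their order along mitochondrial DNA, 1 point per library. The open symbol is MT-TY at 0 counts, drawn at the limit of 3 counts. For every mRNA the point of shGOLM1 replicate 2 is the lowest of the 4, and for MT-RNR2 it is the highest.

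The rRNAs, which come from the start of the heavy-strand transcript, moved in opposite directions in shGOLM1 replicate 2. MT-RNR1 was at 447, 384, 373 and 256 CPM and MT-RNR2 at 971, 856, 1025 and 1468 CPM. Replicate 1 lay near the shscramble pair at both genes, with log2 differences of -0.16 (edgeR adjusted p = 0.314) and 0.17 (edgeR adjusted p = 0.291), although MT-RNR2 passed with library totals alone (0.28, edgeR adjusted p = 0.0398). In replicate 2 MT-RNR1 fell (-0.70, SE 0.12, edgeR adjusted p = 2.68e-04) and MT-RNR2 rose by 0.68 (SE 0.12, edgeR adjusted p = 2.43e-04). Between the shGOLM1 libraries MT-RNR2 differed by 0.52 (edgeR adjusted p = 0.00665), a call lost with library totals alone (0.077, edgeR adjusted p = 0.609). The count ratio of MT-RNR1 to MT-RNR2 was 0.460, 0.449, 0.364 and 0.175. The count ratio of MT-RNR2 to MT-CO1 was 0.190, 0.173, 0.187 and 1.65, and it was above 1 in shGOLM1 replicate 2 alone.

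Of the tRNA counts nearly all came from MT-TN, MT-TC, MT-TY and MT-TP, all on the minus strand, and the first 3 were near 0 in shGOLM1 replicate 2. MT-TN had 1278, 752, 1582 and 6 counts. MT-TC had 554, 503, 698 and 2 counts, and MT-TY 107, 135, 88 and 0 counts. The 3 adjacent genes, whose sequences stand above, therefore summed to 1939, 1390, 2368 and 8 counts, or 59.4, 41.8, 68.3 and 0.351 CPM. From the counts, the ratio of the shscramble pair to shGOLM1 replicate 2 was 117 for MT-TN (95% counting interval 53.6 to 319) and 183 for MT-TC (50.4 to 1510). MT-TY was at least 27.8-fold lower, taking 3 counts per library in place of 0. All 3 fell by edgeR (adjusted p = 1.08e-07, 8.92e-09 and 5.88e-06). In shGOLM1 replicate 1 the same 3 genes were not called, with log2 differences of 0.56, 0.33 and -0.53. With library totals alone MT-TN (0.68, edgeR adjusted p = 0.0128) and MT-TC (0.44, edgeR adjusted p = 0.0425) passed there as higher.

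MT-TP behaved otherwise. It had 707, 681, 1274 and 210 counts, or 21.7, 20.5, 36.7 and 9.23 CPM. It rose by 0.80 on the log2 scale in replicate 1 (SE 0.14, edgeR adjusted p = 5.01e-04) and fell in replicate 2 (-1.19, SE 0.16, edgeR adjusted p = 2.58e-05), so the shGOLM1 libraries lay on either side of the shscramble pair. The remaining 18 tRNAs were near the limit of detection, with 179, 271, 141 and 4 counts in sum. Of all 22 tRNAs, 2, 3, 4 and 17 had 0 counts. A count of 0 allows 0.0919, 0.0902, 0.0865 and 0.132 CPM in the 4 libraries, taking 3 counts as its limit. MT-TE, the tRNA for glutamate, had 33, 28, 4 and 0 counts. It was lower in replicate 1 (log2 -2.96, SE 0.97) and at least 7.03-fold lower in replicate 2. MT-TE passed the filter on low counts only through the shscramble libraries, as did MT-TI (20, 19, 6 and 0 counts). A gene that passes in this way can only be lower in shGOLM1, so neither adds support to the counts of members that fell. The other thinly counted tRNAs that were tested, MT-TV, MT-TL1, MT-TG and MT-TH, also had 0 counts in replicate 2. Their bounds ran from at least 4.14-fold (MT-TV) to at least 10.8-fold lower (MT-TH). A count on a tRNA gene can come from a mature tRNA or from an unprocessed RNA that spans it, and where strand was not used in counting, from either strand. These cannot be told apart in gene counts.

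The makeup of the mitochondrial counts also differed between libraries. MT-CO1 made up 21.9%, 23.2%, 31.5% and 16.1% of them. MT-ND4 made up 12.9%, 13.7%, 14.96% and 19.3%, and MT-RNR2 4.16%, 4.02%, 5.89% and 26.6%. MT-ATP6 made up 11.2%, 12.04%, 6.10% and 3.07%, and MT-ND3 3.11%, 2.10%, 0.711% and 0.532%. For these 5 genes at least one shGOLM1 library lay outside the gap between the shscramble libraries. The shares of MT-ND5 and MT-ND6 were closer together, at 3.96%, 4.44%, 4.25% and 4.14% and at 1.12%, 1.18%, 1.13% and 1.40%. Both shGOLM1 values of MT-ND5 lay between its shscramble values, while MT-ND6 in shGOLM1 replicate 2 lay above both of its own. These shares are free of the scaling between libraries, and each rests on the mitochondrial counts of its own library.

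Copies of mitochondrial genes inserted in the nuclear genome can take reads from the true genes. The table names 407 such copies, of which 31 had any count and 3 reached 1 CPM on average. All 3 lie on chromosome 1 (GRCh38): MTND2P28 (629640 to 630683), MTCO1P12 (631074 to 632616) and MTATP6P1 (633696 to 634376). They are 98.2%, 98.6% and 98.5% identical to MT-ND2, MT-CO1 and MT-ATP6, with identical runs of up to 266, 245 and 141 bases. MTND2P28 had 7375, 6186, 2704 and 515 counts, 10.3%, 9.19%, 7.99% and 5.57% of those of MT-ND2. MTATP6P1 had 6986, 3370, 1101 and 154 counts, 8.15%, 3.96%, 2.99% and 3.998% of those of MT-ATP6. How many reads the counting moved between these copies and MT-ND2 or MT-ATP6 was not tested, and these shares do not bound it. These copies had fewer counts in the shGOLM1 libraries too. MTCO1P12 had 337, 173, 221 and 17 counts, so shGOLM1 replicate 1 lay between the shscramble libraries and was not called (edgeR adjusted p = 0.524). All copies together came to 1.93%, 1.38%, 0.674% and 0.581% of the mitochondrial counts, and adding them to the sum gave a log2 ratio of the shares of -0.96. The 13 nuclear genes resembling MT-RNR2 had at most 6 counts.

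Nuclear genes that act on mitochondrial DNA and RNA, and nuclear subunits of the same complexes, were read from 9 lists. In the test of 4 libraries edgeR called 0 members of any list. Of 8 tested genes for transcription of mitochondrial DNA, 5 fell in shGOLM1 replicate 1 and 0 rose, and 5 fell and 1 rose in shGOLM1 replicate 2. Of all genes, 24.3% fell and 20.8% rose in replicate 1, and 35.5% and 33.1% in replicate 2. The 5 lower in replicate 1 became 3 with library totals alone and 3 with DESeq2, and the 1 higher in replicate 2 became 0 with library totals alone. POLRMT, the mitochondrial RNA polymerase, was at 149, 139, 128 and 43.2 CPM, with no call in replicate 1 (log2 -0.17) and a fall in replicate 2 (-1.74). TFAM, which packages the DNA and opens its promoters, was at 85.0, 84.9, 58.2 and 30.05 CPM and fell in both (log2 -0.54 and -1.499). TFB2M, the initiation factor, was at 27.6, 27.1, 12.2 and 10.6 CPM and fell in both (-1.16 and -1.37). The termination-factor relative MTERF3 was at 25.1, 23.9, 10.5 and 35.9 CPM, below the shscramble pair in one shGOLM1 library and above it in the other, where the call was lost with library totals alone. Of 16 replication genes, 8 fell and 3 rose in replicate 1, and 11 fell and 2 rose in replicate 2. With library totals alone and with DESeq2 the 8 became 4 and the 2 became 1. TWNK, the helicase that unwinds mitochondrial DNA, was at 70.0, 63.4, 46.7 and 1.19 CPM, and fell in replicate 1 (log2 -0.51, edgeR adjusted p = 0.00473) and in replicate 2 (-5.81, edgeR adjusted p = 3.40e-10). SSBP1, the single-strand binding protein, was at 210, 190, 120 and 114 CPM and fell in both (-0.73 and -0.81).

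In the list for processing and turnover of mitochondrial RNA, 34 of 44 fell and 1 rose in replicate 1 (median log2 -0.56), and 35 fell and 3 rose in replicate 2 (median -1.19). Of all genes, 24.3% fell and 20.8% rose in replicate 1, and 35.5% fell and 33.1% rose in replicate 2. With library totals alone 3 genes of this list rose in replicate 1. TRMT10C, a subunit of the enzyme that cuts the 5′ end of mitochondrial tRNAs, was at 82.3, 71.3, 36.3 and 5.45 CPM. It fell in replicate 1 (log2 -1.08, edgeR adjusted p = 5.31e-05) and in replicate 2 (-3.82, edgeR adjusted p = 1.84e-09). Its partner HSD17B10 was at 231, 196, 130 and 124 CPM and fell in both (-0.72 and -0.79). ELAC2, which cuts the 3′ end, was at 223, 218, 162 and 76.0 CPM and fell in both (-0.44 and -1.54). TRMT10C, HSD17B10 and ELAC2 were thus lower in both shGOLM1 libraries, by unlike amounts in replicate 2. PRORP of the same list was at 5.42, 5.32, 4.47 and 2.59 CPM. Its log2 difference was only -0.27 in replicate 1 (SE 0.27) and -1.05 in replicate 2 (SE 0.30). PNPT1, a subunit of the RNA-degrading complex, was at 144, 144, 62.5 and 20.03 CPM and fell in both (-1.20 and -2.84). LRPPRC and SLIRP, which bind and stabilise the mRNAs together, both fell in replicate 2 (-0.96 and -0.89). LRPPRC was at 309, 335, 249 and 166 CPM, and SLIRP at 55.8, 38.1, 23.3 and 25.3 CPM. In replicate 1 SLIRP fell (-1.01), and the call of LRPPRC (-0.37) was lost with library totals alone. FASTKD2, which binds MT-RNR2 and MT-ND6, was at 121, 121, 75.0 and 25.9 CPM, and FASTKD5, needed for mRNAs not flanked by tRNAs, at 49.6, 52.1, 29.2 and 9.71 CPM. Both fell in both shGOLM1 libraries.

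Among 10 tested regulators of mitochondrial biogenesis, 5 fell and 2 rose in replicate 1, and 7 fell and 0 rose in replicate 2. Beside these counts, 24.3% of all genes fell and 20.8% rose in replicate 1, and 35.5% and 33.1% in replicate 2. The 5 became 3 with library totals alone and with DESeq2, which called 1 higher in replicate 1, and with DESeq2-type size factors 1 rose in replicate 2. PPRC1, a coactivator, was at 192, 197, 160 and 16.3 CPM, and its relative PPARGC1B at 16.6, 22.3, 35.6 and 1.32 CPM. PPARGC1B rose by 0.87 in replicate 1 and fell in replicate 2 (-3.88). MYC was at 91.0, 92.3, 92.4 and 14.6 CPM, and fell in replicate 2 only (log2 -2.65, against 0.011 in replicate 1). NRF1, a transcription factor for mitochondrial genes of the nucleus, was at 33.7, 31.8, 21.0 and 18.5 CPM and fell in both (-0.64 and -0.82). PPARGC1A had 0 counts in all 4 libraries.

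Nuclear subunits of the complexes were less often lower than their mitochondrial partners in shGOLM1 replicate 2, a difference that was not tested. All 11 nuclear genes of complex IV fell in replicate 1 and all 11 rose in replicate 2 (medians -0.56 and 0.82), where the 3 mitochondrial ones fell. The counts were 6 lower and 10 higher with library totals alone, and 4 and 10 with DESeq2. COX4I1 was at 263, 225, 196 and 431 CPM. Of 37 nuclear genes of complex I, 22 fell and 1 rose in replicate 1, and 6 fell and 16 rose in replicate 2, a split that turned to 14 and 9 with library totals alone. For complex III 8 of 9 fell in replicate 1, and 2 fell and 4 rose in replicate 2 (3 and 2 with library totals alone). Complex V had 10 of 15 lower and 0 higher in replicate 1, and 5 lower and 5 higher in replicate 2 (9 and 3 with library totals alone). ATP5F1A, the alpha subunit of the synthase, was at 1114, 1054, 557 and 662 CPM and fell in both (-0.96 and -0.71). Complex II, which has no mitochondrially encoded subunit, had 2 of 4 lower in replicate 1 and 2 of 4 higher in replicate 2, with 1 lower there under library totals alone. These counts stand beside 24.3% and 20.8% of all genes lower and higher in replicate 1, and 35.5% and 33.1% in replicate 2. The part of the high ribosomal protein share of shGOLM1 replicate 2 in these differences was not tested.

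**Figure D4:**
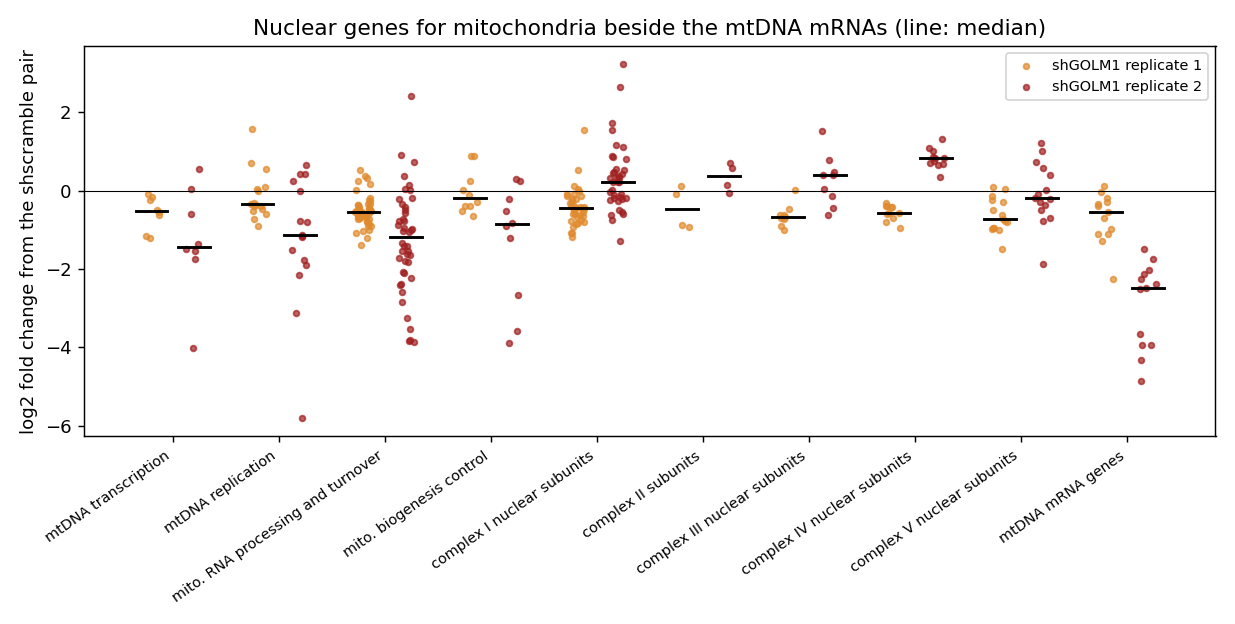
Log2 difference from the shscramble pair of mitochondrially encoded and nuclear genes, by list, in shGOLM1 replicate 1 and shGOLM1 replicate 2, with 1 point per tested gene and a line at each median. In replicate 2 the nuclear complex IV genes have a median of 0.82 and the mitochondrial mRNAs a median of -2.49.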

How the data were processed

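RNA of 4 SUP-M2 libraries was extracted with a column kit and sequenced after an mRNA-seq library kit, per the labels' protocols. No source used here names the aligner, the counting tool or the strand setting. Mouse builds (GRCm38, mm10) stand in the submitters' processing notes, whereas the identifiers, coordinates and strands of all 37 members equal those of human GENCODE 29 on GRCh38, whose transcripts gave the sequences. The deposited counts are whole reads per gene and library, per the file headers. FPKM as deposited by the authors was only compared with CPM per kilobase, to which its ratio was 0.990, 0.989, 0.972 and 0.971 in the 4 libraries. The signal the authors deposited is a mean normalized count per group and was not used in a test. From the authors' comparison the deposited log2 fold changes and p-values were copied as theirs, with the tool not named.

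Samples were grouped by title. The main test was edgeR's quasi-likelihood test on the deposited counts (edgeR 4.0.16, limma 3.58.1, R 4.3.3), with TMM factors of 1.02, 1.05, 1.12 and 0.828, filterByExpr and Benjamini-Hochberg adjustment over 14166 genes at 0.05. The second fit had 3 levels, shscramble and each shGOLM1 library. Each SE is the size of the log2 fold change over the square root of the test's F value, from the fit that gave that fold change. Alternatives were DESeq2 1.42.0, limma-voom, other scalings, other filters, a replicate block and leaving out each library. The scripts were tested on simulated data, where the test of 4 libraries recovered 1.35% of 2-fold, 22.7% of 4-fold and 63.3% of 16-fold changes. A gene not called in that test can therefore still differ. No library was a copy of another: chi-square per gene was 15.1 within shscramble and 581 within shGOLM1. Members were named by class, the 13 mRNAs and 2 rRNAs all, tRNAs by their counts, and nuclear genes by role within 9 lists. One nuclear gene of these lists is not reported here. The members, lists and tests were chosen with earlier results of these data known.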

Additional observations from a re-analysis of the deposited data

How the results depend on the processing

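In the test of 4 libraries, 0 of all genes were called by edgeR, against 192 with no filter, 203 with a replicate block and 539 with DESeq2, and from 20 to 10290 when 1 library was left out. Of the mitochondrial genes 0 were called, against 1 with no filter, 1 with the replicate block and 1 with DESeq2 (MT-ND3 each time), and from 0 to 26 when 1 library was left out: 26 without shGOLM1 replicate 1, 12 without shGOLM1 replicate 2 and 0 without either shscramble library. With a lone library in one group, that library is assumed to vary like the other group. The labels do not say what the replicate numbers mean. Deviations of same-numbered libraries correlated at -0.098 across genes. This cannot exclude a shared batch, because the gap between the shGOLM1 libraries dominates their deviations. For all genes in shGOLM1 replicate 1, 6383 were called with edgeR and 3969 with DESeq2.

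Direction turned in these cases. With 1 library left out the log2 fold change ranged from -2.55 to 0.11 for MT-CO1, from -7.49 to 0.31 for MT-TC, from -6.90 to 0.54 for MT-TN (0.0049 without shscramble replicate 1) and from -1.24 to 0.79 for MT-TP, the upper end each time without shGOLM1 replicate 2. MT-TP was also -0.19 with the replicate block and -0.12 with limma-voom. With library totals alone the difference in replicate 1 was 0.079 for MT-CYB, 0.035 for MTERF2, 0.0090 for ESRRA and 0.030 for SDHA, and in replicate 2 it was -0.28 for MTERF4 and -0.073 for GABPB1. With no filter it was -0.057 for MTERF4 in replicate 2, and in replicate 1 -0.039 for MYC and -0.036 for UQCRC1. Depth limits the tRNAs most, since 12 of 22 were too thinly counted to be tested.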

Other observations

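Across the 13 mitochondrial mRNAs, the log2 difference from the shscramble pair went with gene length at Pearson r = 0.55 in shGOLM1 replicate 1 and 0.55 in shGOLM1 replicate 2. The 13 points share libraries, and the comparisons share the shscramble libraries, so these values only describe the genes. In replicate 2 the long MT-ND4 and MT-ND5 differed by -1.48 and -2.03, the short MT-ATP8 and MT-ND3 by -4.85 and -4.32, and the equally short MT-ND4L by -2.27.

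By strand, the 28 genes of the plus strand summed to 4.05-fold and the 9 of the minus strand to 3.80-fold below the shscramble mean in shGOLM1 replicate 2. The values were 1.29-fold and 1.09-fold in shGOLM1 replicate 1. MT-ND6, the mRNA of the minus strand, was 3.33-fold lower in replicate 2, while the 8 tRNAs of that strand summed to 82.3, 63.4, 105 and 9.58 CPM.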
